A study of Homo sapiens with 3 samples.

Results

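The genes described here are 5 interferon regulatory factors (IRF1, IRF2, IRF3, IRF7 and IRF9), the transcription factor STAT2 and the receptor-bound kinases JAK1 and TYK2. They were measured in FaDu cells, an established line of a squamous carcinoma of the hypopharynx, on Affymetrix PrimeView arrays. A probe set, the group of probes summarised to 1 value, was taken where the platform annotation named exactly 1 gene and that gene was on this list. This gave 20 probe sets of 7 genes, of 49395 in the table and 44988 that named 1 of 18132 genes. STAT2 was named by no listed probe set and was not analysed here.

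The treated cells received NSC-631570, an extract of Chelidonium majus (greater celandine), at 10 µg/ml for 48 h, a dose the submitters call its EC50. Control cells received the same volume of distilled water. There were 2 untreated arrays and 1 treated array. The labels do not say that the untreated arrays came from separate cultures, so their spread may be technical, and the treated condition has no replicate. The treated array is therefore assumed to vary like the untreated ones, and an exact permutation test of 1 value over these 3 arrays cannot give a p below 0.333. Values are log2 signals, so a difference of 1 is a 2-fold ratio.

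Interferons bind receptors that carry JAK family kinases. For type I interferon these are TYK2 and JAK1, which phosphorylate STAT proteins. STAT2 then joins a partner STAT and IRF9 in the complex ISGF3, which binds interferon-stimulated response elements (ISRE) in antiviral genes. IRF3 and IRF7 act earlier, switching on interferon genes when nucleic acid sensors fire, and IRF7 is itself an interferon-stimulated gene. IRF1 is induced through a STAT site called GAS (gamma-activated sequence), and IRF2 can compete with it for the same DNA elements. In squamous epithelium this system serves antiviral defence and the display of antigens.

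The array medians were 6.62 and 6.57 untreated and 6.55 treated. Of the probe sets naming 1 gene, 27249 had a mean signal at or above 5.85, the 40th percentile of the table, and were tested. All 7 epithelial markers measured lay above that filter, with medians of 13.2, 13.4 and 12.9 in untreated 1, untreated 2 and treated. Of 7 fibroblast markers 2 lay above it and of 8 leukocyte markers 4, with list medians of 5.05, 4.96 and 5.11 and of 5.39, 5.23 and 5.43. The defining leukocyte gene PTPRC stayed between 3.72 and 3.78, while CD68, a lysosomal protein abundant in macrophages, read 7.61, 8.55 and 9.53. In the treated array the 5′ control probe set of ACTB read 12.23 against 13.61 and 13.60 untreated, and its 3′ one 14.40 against 14.19 and 14.21. The 5′ control of GAPDH also read lower, 14.00 against 14.45 and 14.51. The plot of these controls shows the difference growing from the 3′ to the 5′ end.

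**Figure D1:**
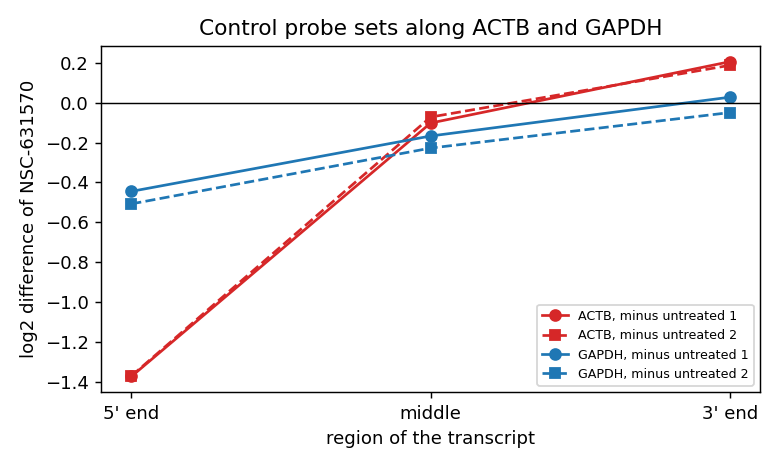
Log2 difference of the NSC-631570 array from each untreated array (y axis) for control probe sets at the 5′ end, middle and 3′ end of ACTB and GAPDH (x axis). For ACTB the mean difference is −1.37 at the 5′ end and 0.20 at the 3′ end, and for GAPDH −0.48 and −0.01.

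Most probe sets of these genes read higher after the extract, with IRF7 and IRF9 farthest up. Of the 19 tested, 14 lay above both untreated arrays, 4 below both and 1 between them. Over all tested probe sets 40.7% lay above both and 34.5% below both. Probe sets of the same gene are not independent. With the probe sets of each gene averaged, 4 of 7 member genes lay above both (41.5% of all genes) and 2 below both (32.8%). At least 2-fold beyond both arrays, 2 member probe sets stood above (0.646% of all tested) and 1 below (2.57% of all tested). The median log2 difference of the members was 0.40, against 0.03 over all tested probe sets. In RNA of whole cultures, more cells expressing a gene and more RNA per cell cannot be told apart. By limma with Benjamini-Hochberg adjustment over all tested probe sets, 2 members passed an adjusted p of 0.05, a threshold that 2.93% of all passed. The IRF7 probe set passed as higher, as 0.554% of all did, and a JAK1 probe set as lower, as 2.38% did. At an unadjusted p under 0.05, 3 members were higher and 2 lower, against 8.31% and 9.55% of all.

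Both calls rest on a variance with 1 residual degree of freedom. With the prior degrees of freedom, estimated at 6.66, set to 4 instead, limma called 0 of the 27249 probe sets, although 4053 had an unadjusted p under 0.05. In that fit the adjusted p was 0.116 for IRF7 and 0.151 for the JAK1 probe set.

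**Figure D2:**
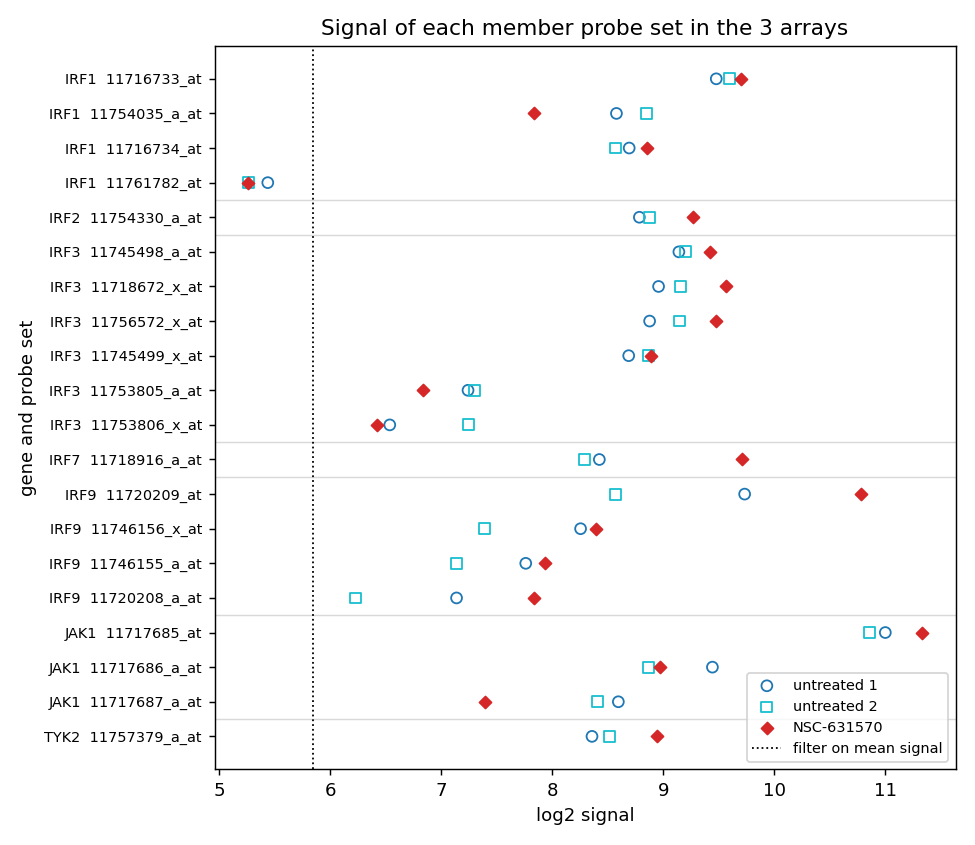
Log2 signal (x axis) of the 20 probe sets, grouped by gene (y axis), with open circles and squares for untreated 1 and 2 and red diamonds for NSC-631570; the dotted line is the filter at 5.85. The treated value lies right of both untreated ones for IRF7, TYK2, IRF2 and all 4 IRF9 probe sets, and left of both for 1 IRF1, 2 IRF3 and 1 JAK1 probe set that were tested. Signals of different probe sets are not comparable with each other.

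IRF7, the factor that amplifies type I interferon production, had 1 probe set (11718916_a_at). It read 8.42 in untreated 1, 8.29 in untreated 2 and 9.71 after the extract. The treated value stood well clear of both untreated ones, which lay 0.14 apart. IRF7 rose by 1.35 ± 0.22 (limma SE, n = 2 untreated and 1 treated), a 2.56-fold ratio (limma adjusted p = 0.0250). From the nearer untreated array the ratio was 2.44-fold, and 0.172% of all tested probe sets stood as far above both. The call was lost in fits with 1 value per gene, which leave the IRF7 signals as they are: the adjusted p was 0.0900 with the brightest probe set and 0.107 with the average over probe sets.

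IRF9, the DNA-binding subunit of ISGF3, had 4 probe sets, and in each the treated array was the highest of the 3 and untreated 2 the lowest. The brightest (11720209_at) read 9.73, 8.57 and 10.78 in untreated 1, untreated 2 and treated. It stood 1.63 ± 0.42 above the untreated mean, a 3.09-fold ratio, and did not pass (limma adjusted p = 0.0921). The treated value exceeded untreated 1 by 1.05 and untreated 2 by 2.21, so the untreated arrays were 1.16 apart, a gap that 0.789% of tested probe sets reached.

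The probe set 11720208_a_at read 7.14, 6.23 and 7.83 in the same order, a difference of 1.15 ± 0.36. For 11746155_a_at the signals were 7.76, 7.13 and 7.94, and for 11746156_x_at they were 8.25, 7.39 and 8.39. These last probe sets lay only 0.18 and 0.14 above untreated 1, with differences of 0.49 and 0.57 from the untreated mean. The direction in IRF9 was thus common to its 4 probe sets, while the distance from untreated 1 ran from 0.14 to 1.05. With the 5 member probe sets marked _x_at, and all others of the table marked _s_at or _x_at, left out, the brightest IRF9 probe set passed (adjusted p = 0.0414). Such marks mean that some probes may match other transcripts. The brightest IRF9 probe set carries no such mark, so its signals and difference were unchanged in that fit, a setting chosen after the values were seen.

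The promoters of IRF9 and IRF1 are printed because both hold a match to GAS, the element through which interferon-gamma acts on a gene. They run from 250 bases before to 50 bases after the start, from RefSeq on GRCh38.p14, 5′ to 3′ on the gene's strand, with motif matches in capitals. IRF9 lies at chr14:24161015-24161314 on the plus strand and IRF1 at chr5:132490724-132491023 on the minus strand.
IRF9: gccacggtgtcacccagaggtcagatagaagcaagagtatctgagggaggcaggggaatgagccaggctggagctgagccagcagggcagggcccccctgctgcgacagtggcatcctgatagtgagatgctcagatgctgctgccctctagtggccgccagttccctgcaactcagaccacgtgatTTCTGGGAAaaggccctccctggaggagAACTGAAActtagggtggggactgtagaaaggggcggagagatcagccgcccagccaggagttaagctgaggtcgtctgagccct
IRF1: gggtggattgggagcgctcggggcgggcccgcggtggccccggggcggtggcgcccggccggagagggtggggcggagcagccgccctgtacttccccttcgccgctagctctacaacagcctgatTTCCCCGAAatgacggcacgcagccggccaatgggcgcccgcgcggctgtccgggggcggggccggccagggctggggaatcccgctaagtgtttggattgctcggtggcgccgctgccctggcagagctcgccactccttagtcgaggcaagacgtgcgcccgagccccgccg
The letters searched on both strands were TTCNNNGAA for GAS, GAAANNGAAA for ISRE and AANNGAAA for the IRF core, and every ISRE match also holds an IRF core. In IRF9 the GAS match TTCTGGGAA lies 63 to 55 bases before the start and the core match AACTGAAA 35 to 28 bases before it. In IRF1 the GAS match TTCCCCGAA lies 124 to 116 bases before the start. Of 35116 promoters given by RefSeq, 7.66% hold GAS, 3.57% ISRE and 22.8% the core. Of the 5 member genes with an entry, JAK1 had 3 starts, of which 2 hold a core match, and the windows of TYK2 and STAT2 hold none of the 3 motifs. A match describes letters, and binding was not measured.

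IRF1, the activator induced by interferon-gamma, had 4 probe sets, which disagreed. The brightest (11716733_at) read 9.48 and 9.59 untreated and 9.70 treated, and 11716734_at read 8.69, 8.57 and 8.85. These treated values lay above both untreated ones by 0.11 and 0.16, about as far as the untreated arrays lay from each other. The probe set 11754035_a_at went the other way, with 8.58 and 8.85 untreated and 7.84 treated, a difference of −0.87 ± 0.23 that did not pass (limma adjusted p = 0.0986). The last, 11761782_at, lay under the filter at 5.44, 5.26 and 5.26 and was not tested. The sign of the IRF1 difference depended on the probe set: it was 0.16 on the brightest and −0.14 as the mean of all 4.

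IRF2, which binds the same elements as IRF1 and often represses them, had 1 probe set (11754330_a_at) at 8.78 and 8.87 untreated and 9.26 treated. Its treated value lay above both untreated ones, with a difference of 0.44 ± 0.22 (limma adjusted p = 0.359). That is a 1.35-fold ratio, and 9.97% of tested probe sets stood as far above both.

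IRF3, the factor present before infection and activated by phosphorylation, had 6 probe sets, of which 4 lay above both untreated arrays and 2 below. The brightest (11745498_a_at) read 9.14, 9.20 and 9.42, a difference of 0.25 ± 0.22. The largest difference was 0.51 ± 0.23 on 11718672_x_at, with 8.96 and 9.16 untreated and 9.57 treated, a 1.43-fold ratio. Both probe sets below were dimmer. Of these, 11753805_a_at read 7.24, 7.30 and 6.84, a difference of −0.43 ± 0.22. The other, 11753806_x_at, read 6.53, 7.24 and 6.42, where the untreated arrays were 0.71 apart and the treated value lay 0.11 below untreated 1. The adjusted p of the 6 ran from 0.293 to 0.863 by limma.

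JAK1, the kinase shared by type I and type II interferon receptors, gave opposite results on its 3 probe sets. The brightest (11717685_at) read 11.00 and 10.86 untreated and 11.33 treated, a difference of 0.40 ± 0.22 (limma adjusted p = 0.410). The probe set 11717686_a_at read 9.44, 8.86 and 8.97, with the treated value between the untreated ones. The dimmest, 11717687_a_at, read 8.59 and 8.41 untreated and 7.39 treated, clearly below both. It fell by 1.11 on the log2 scale (SE 0.23, a 2.16-fold ratio, limma adjusted p = 0.0471), and 2.43% of tested probe sets stood as far below both. This call was lost after quantile normalisation (0.0714), with array medians set equal over the whole table (0.0525), with low signals kept in (0.0655) and with a filter raised to the 60th percentile (0.0516). It was kept with medians set equal over the tested probe sets (0.0309). Without the _s_at and _x_at probe sets, the setting chosen after the values were seen, it was kept as well (0.0259). The mean of the 3 JAK1 probe sets differed by −0.30, opposite in sign to the brightest.

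TYK2, the kinase bound to the IFNAR1 chain, had 1 probe set (11757379_a_at) with 8.36 and 8.52 untreated and 8.94 treated. The treated array was the highest by 0.42, and the difference was 0.50 ± 0.22 (limma adjusted p = 0.293), a 1.42-fold ratio.

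**Figure D3:**
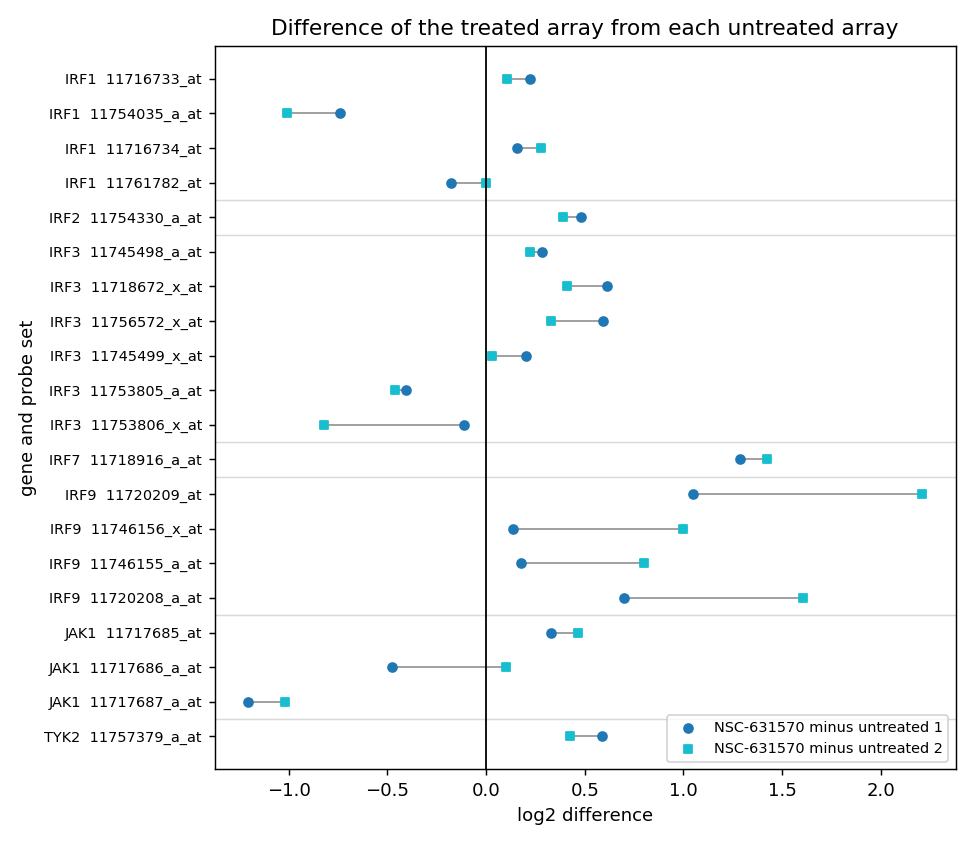
Log2 difference of the NSC-631570 array from untreated 1 (circles) and untreated 2 (squares) for each of the 20 probe sets (y axis), joined by a line whose length is the gap between the untreated arrays. IRF7 lies at 1.29 and 1.42, and the JAK1 probe set that fell lies at −1.20 and −1.02. The longest line is that of the brightest IRF9 probe set (1.16). An IRF3 line (0.71) is longer than the shortest IRF9 line (0.62).

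Within-gene disagreement of this kind was common in the table. Of 7124 genes with more than 1 tested probe set, 31.6% had some above both and some below both untreated arrays, and so did 3 of the 4 members with more than 1, IRF1, IRF3 and JAK1. The range of differences within a gene had a median of 0.41 over these genes, against 1.09 in IRF1, 0.98 in IRF3, 1.14 in IRF9 and 1.51 in JAK1. The share of genes with a range at least as wide was 12.0%, 15.6%, 10.8% and 4.59% in the same order. In all 7 member genes the brightest probe set lay above both arrays, against 51.6% of 11932 genes. In genes with several, the share of probe sets at least 2-fold below both arrays was 0.281% for the brightest and 4.39% for the others. Brightness by the mean of the 3 arrays depends in part on the treated value. With probe sets ranked by the untreated arrays alone, the shares were 0.449% and 4.31%, all 7 members again lay above both arrays, and 50.6% of all genes did. The lower JAK1, IRF1 and IRF3 probe sets stood in the same array as the 2.59-fold lower 5′ signal of ACTB, whose part in them was not tested. In that array the 3′ signal of ACTB was higher by 0.20. Among genes with several, the median difference was 0.12 for the brightest probe sets and −0.05 for the others. The part of such a shift in the higher brightest probe sets of IRF1, IRF3, IRF9 and JAK1 was not tested either.

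**Figure D4:**
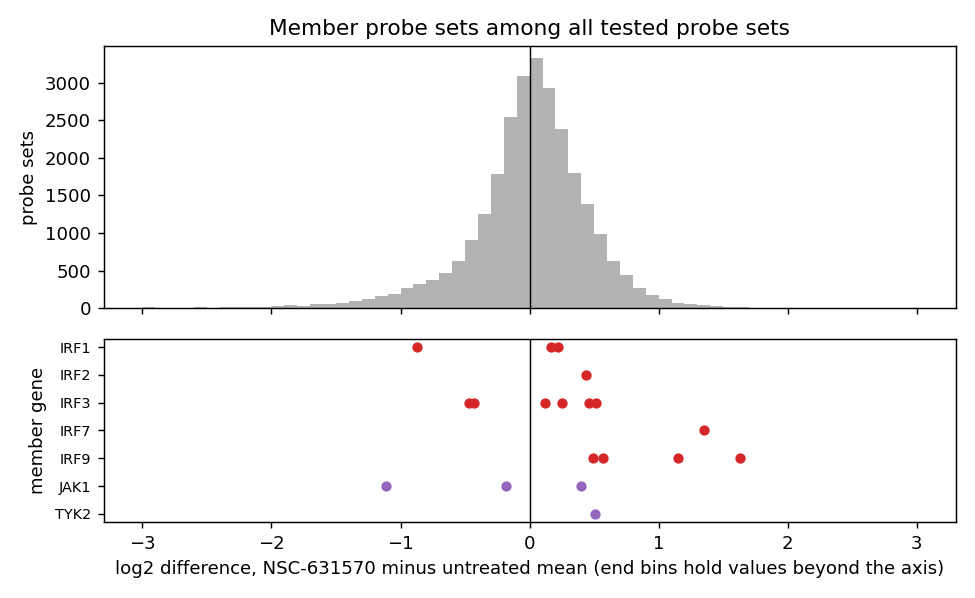
Top, number of tested probe sets (y axis) by log2 difference of NSC-631570 from the untreated mean (x axis), 27249 in all; bottom, the 19 tested member probe sets on the same axis, IRF genes in red and kinases in purple. IRF7 and 2 IRF9 probe sets lie beyond 1 on the right, and 1 JAK1 probe set beyond −1 on the left.

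The rest of the pathway was read from lists of genes by role, each gene by its brightest tested probe set. None of the 17 interferon genes named on the array, among them IFNB1, IFNG and IFNL1, had a mean signal at the filter. Their 21 probe sets had a median of 3.95 and 3.92 untreated and 3.91 treated, and the highest in each array was IFNL1 (5.53, 5.38 and 5.77). Among the 6 receptor genes 4 lay above both untreated arrays and 2 below, against 51.6% and 22.5% of all genes. IFNLR1, the specific chain of the interferon-lambda receptor, read 7.63, 7.52 and 8.55, a difference of 0.98 ± 0.22 (limma adjusted p = 0.0631). IL10RB, its shared partner chain, stood at 0.41. IFNAR1, the TYK2-binding chain of the type I receptor, stood at −0.29, and its other 3 tested probe sets ran from −0.32 to 0.19. None of the 13 receptor probe sets passed, where 2.93% of all tested did.

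Of 10 other IRF, STAT and JAK genes named on the array, IRF4 and IRF8, factors of blood cells, lay under the filter. The 8 tested had a median of 0.16 by their brightest probe sets, with 5 above both arrays and 3 below. Over all genes the median was 0.12, with 51.6% above both and 22.5% below. JAK2, the kinase of the interferon-gamma receptor, read 7.57, 6.93 and 8.01 (0.76 ± 0.29), and STAT5B read 7.18, 7.48 and 8.04 (0.71 ± 0.24). The other 3 tested STAT5B probe sets ran from −0.34 to 0.34. STAT6, the factor of interleukin-4 signalling, stood at 0.37. None of these 3 passed on its brightest probe set. Of the 25 probe sets 11 lay above both arrays and 11 below, against 40.7% and 34.5% of all tested. Past the limma threshold 1 was higher and 2 were lower, where 0.554% and 2.38% of all were. None of these was the brightest of its gene by the mean of the 3 arrays. The higher one was of IRF5 (7.10, 7.07 and 8.40, difference 1.32), while its brightest stood at −0.15. The lower ones were of STAT3 (10.45, 10.33 and 9.17, difference −1.22) and STAT6 (7.59, 7.36 and 6.29, difference −1.19). The brightest of STAT3 stood at 0.13. By the untreated arrays alone the STAT3 probe set that fell was the brightest of its gene, and the list then had 4 genes above both arrays and 4 below, with a median of 0.06. Ranked that way, 50.6% of all genes lay above both and 23.5% below. The limma adjusted p of the IRF5, STAT3 and STAT6 probe sets past the threshold was 0.0256, 0.0338 and 0.0409. IRF5 and STAT3 were named here after their values were seen.

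Of 19 tested inhibitors of JAK-STAT signalling 9 lay above both arrays and 6 below, with a median of 0.11. Over all genes the median was 0.12, with 51.6% above both and 22.5% below. SOCS1, an interferon-induced inhibitor of JAK kinases, read 6.08, 5.59 and 6.78, a difference of 0.95 ± 0.27 (limma adjusted p = 0.113). The phosphatase gene PTPN6 stood at 0.60 and PIAS3, an inhibitor of STAT3, at 0.57. None of the 43 probe sets passed, where 2.93% of all tested did. Among 18 tested sensors and adaptors upstream of IRF3 and IRF7, 9 lay above both and 5 below (median 0.12), beside the same 51.6% and 22.5%. Of their 42 probe sets, against that 2.93%, 1 passed. It was of DHX58, a RIG-I-like helicase, which rose by 1.64 ± 0.22 (7.87 and 7.90 untreated, 9.53 treated, limma adjusted p = 0.0132). IFIH1, the sensor MDA5, read 8.01, 7.60 and 8.80 and did not pass (limma adjusted p = 0.0873). TRIM25, a ubiquitin ligase acting on RIG-I, stood at −0.97 ± 0.23 and did not pass either.

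Of 31 tested ISGF3 targets 29 lay above both untreated arrays and 1 below, with a median of 0.76. Over all genes 51.6% lay above both and 22.5% below, with a median of 0.12. At least 2-fold above both stood 5, against 0.880% of all genes. Of 72 probe sets of these genes 58 lay above both arrays and 6 below, against 40.7% and 34.5% of all tested. Past the limma threshold 3 were higher, where 0.554% of all were. They were those of DDX60 (1.33), OASL (1.25) and a dimmer one of OAS2 (1.44). The OASL one, the only tested probe set of that gene, carries the _x_at mark explained above. The OAS2 one was named after its value was seen. The brightest of OAS2 stood at 0.32 and its remaining tested one, which did not pass, at 1.91. IFI27 read 12.11, 8.80 and 13.37, a difference of 2.92 that did not pass (limma adjusted p = 0.203), and its untreated values lay far apart. Untreated 1 exceeded untreated 2 in 27 of the 31, by a median of 0.48, the same order of arrays as in the 4 IRF9 probe sets. Over all genes untreated 1 was higher in 53.0%, by a median of 0.02. Of 23 tested IRF1 and interferon-gamma targets 16 lay above both and 3 below, beside 51.6% and 22.5% of all genes, with a median of 0.35. None of their 74 probe sets passed, where 2.93% of all tested did. NLRC5, the activator of class I antigen presentation genes, stood at 1.24 ± 0.28, the peptide transporter gene TAP1 at 0.91 ± 0.22 and APOL2 at −0.74 ± 0.22. The other tested TAP1 probe set stood at −0.09. CXCL9, CXCL10 and CXCL11, chemokines of that response, lay under the filter and are named here after their values were seen.

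**Figure D5:**
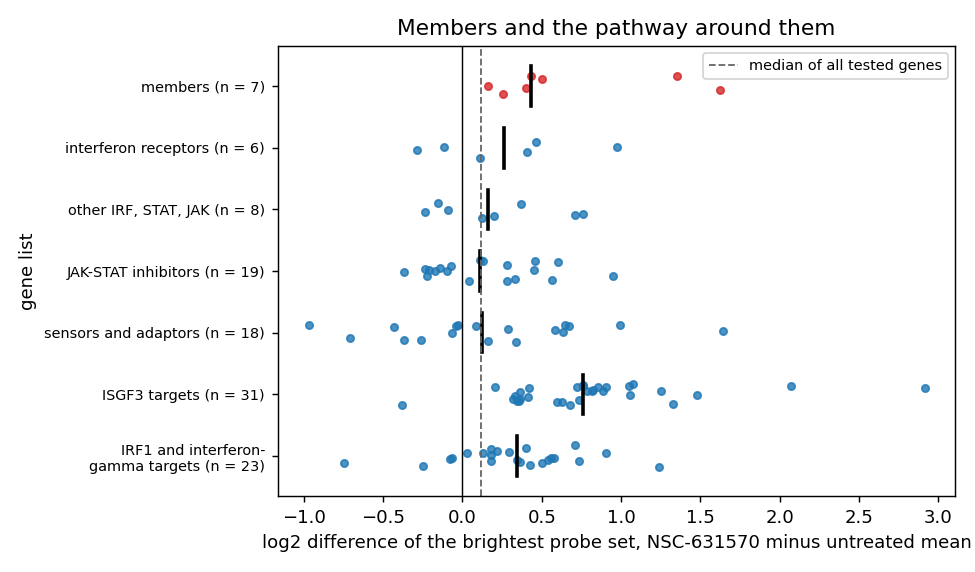
Log2 difference of NSC-631570 from the untreated mean (x axis) for the brightest tested probe set of each gene, by list (y axis), with black bars at list medians and a dashed line at 0.12, the median of all tested genes. The 7 members all lie right of 0, the ISGF3 targets have a median of 0.76, and the receptors, inhibitors and sensors spread to both sides of 0.

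Genes with a pattern like that of IRF7, the member farthest beyond the nearer untreated array, were sought by the Euclidean distance between mean-centred signals over the 3 arrays. The nearest of 11931 genes was DDX60, an interferon-induced helicase gene (10.12, 10.00 and 11.39, distance 0.02). ANXA10 (distance 0.04), CYP2R1 (0.04), GJB5 (0.05) and HOXC11 (0.06) followed. Within a distance of 0.2 there were 37 genes for IRF7 and 2 for IRF9, against 1476 to 3533 for the members with smaller differences. Since 3 arrays define a pattern loosely, this is a description only.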

How the data were processed

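RNA of FaDu cells was measured on 3 arrays from 100 ng of total RNA. Per the submitters' processing notes, the authors made the values with Affymetrix Expression Console. For its algorithm, version and normalization the sources used here say nothing. Each probe set has 1 deposited log2 signal per array, a scale read from the range of values, and no further normalization was applied. No detection call was available, and no library depth applies to arrays, so their number limits the precision.

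Probe sets naming exactly 1 gene with a mean at or above the 40th percentile were compared by limma 3.58.1 in R 4.3.3, and a call needed an adjusted p (Benjamini-Hochberg) under 0.05. The prior SD was 0.19. The fit was also run on simulated data with variances drawn from its own prior, which cannot test that prior. The prior degrees of freedom were estimated from 1 residual degree of freedom per probe set, and the adjusted p-values depend on them. Lists were read by each gene's brightest probe set, by the mean of the 3 arrays. Named are all members and, per list, the 3 genes farthest beyond the nearer untreated array, with the 5 genes most like IRF7. The members and lists were chosen with earlier results of these data known. Alternatives covered normalization, filter, choice of probe set, prior variance and left-out untreated arrays. Promoter sequences are from RefSeq (GRCh38.p14); Python 3.11.15 searched the motifs.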

Additional observations from a re-analysis of the deposited data

How the results depend on the processing

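Of 70 tested alternative values of the member differences, 59 kept their direction and side of the threshold, 8 lost a call, 1 gained one and 2 changed sign. The direction could not change in fits that altered only the filter, the probe sets left out or the prior, which leave the signals as they are. The changes of sign were in IRF1 (−0.14) and JAK1 (−0.30) when the probe sets of a gene were averaged. The lost calls were those of IRF7 and of the JAK1 probe set given above. These were the only 2 member calls of the main fit. Values of the other member probe sets had no call to lose, and they make up most of the 59. Leaving out an untreated array gave 16 further values with no test: 1.29 to 1.42 for IRF7 and 1.05 to 2.21 for IRF9. Their sign could not change, since each of these probe sets lay above both or below both untreated arrays.

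The 799 probe sets past the limma threshold (151 higher, 648 lower) became 455 after quantile normalisation, 440 with the filter at the 60th percentile, 8 with the brightest probe set of each gene and 3 with probe sets averaged per gene, where fewer features were tested. It was 1143 (231 higher, 912 lower) with medians set equal over the tested probe sets, 953 with a trended prior and 938 without the _s_at and _x_at probe sets. The number was 0 with the prior degrees of freedom set to 4, an alternative chosen after seeing the data, as were leaving out those probe sets and ranking by the untreated arrays. The 2 member calls became 1 after quantile normalisation, with array medians set equal over the whole table, with low signals kept in and at the 60th percentile. With medians set equal over the tested probe sets both calls were kept. The number of member calls was also 2 with a trended or a robust prior variance. It was 3 without the _s_at and _x_at probe sets, where IRF9 passed too. It was 0 with 1 value a gene, by the brightest probe set or the mean, and with 4 prior degrees of freedom. At an unadjusted p under 0.05 by limma were 2 of 7, 3 of 7 and 5 of 19 members. Of all features these were 1720 of 11932, 1591 of 10604 and 4053 of 27249, in the same order. Above both untreated arrays were 7 of 7 by the brightest (51.6% of all) and 4 of 7 by the mean (41.5% of all). Below both were 0 of 7 (22.5% of all) and 2 of 7 (32.8%), and 2 of 16 at the 60th percentile (33.1%). No replicate exists for the treated condition.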
